A study of Mus musculus with 18 samples.

Results

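Colon RNA from mice given the wild-type strain of Lactobacillus plantarum ZJ316 after dextran sulfate sodium (DSS) colitis was compared with colon RNA from mice given DSS and then buffer. The comparison rests on 4 libraries of the ZJ316_WT group and 3 of the DSS group, which are 7 of the 18 libraries of the series. They were chosen by their labels, and 12860 of the 18349 genes in the deposited table were tested because they reached 1 FPKM, the number of fragments scaled to transcript length and library size, in at least 3 of these 7 libraries. In all groups the animals were male C57BL/6 mice with genotype WT, their age is not given, and each library is labelled colon tissue from the excised whole colon.

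The ZJ316_WT mice drank 2.5% DSS for 7 days and were then gavaged for 5 weeks with a suspension of the WT bacteria at about 2.5 times 10 to the ninth colony-forming units per mL. The ZJ316_KO and ZJ316_COM mice, 4 libraries each, had the same DSS course and the same gavage with the strains ZJ316-KO and ZJ316-COM, whose altered gene the labels do not name. The DSS mice had the same DSS course followed by 5 weeks of PBS gavage, and the 3 Control libraries came from mice on water with no DSS and no gavage. DSS was therefore shared by the ZJ316_WT and DSS groups, and only the bacteria in the gavage separated them by label. The labels number the libraries without saying that each came from a separate animal, so each p-value reflects library-to-library spread, which may be technical. The series title links ZJ316 to a bacteriocin, to purine and histidine metabolism of the gut microbiota and to colitis, so genes of these host pathways were followed as well.

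DSS is a sulfated polysaccharide that injures the colonic epithelium and lets luminal bacteria reach the lamina propria, which brings in macrophages, neutrophils and lymphocytes and is followed by repair. Colonic goblet cells secrete mucus and small antimicrobial proteins, and in mice a set of epithelial genes that includes Retnlb, Ang4, Itln1, Clca1 and the gasdermin C genes is known to respond to type 2 cytokines. B cells of the colon lie mostly in lymphoid patches and isolated follicles, so their share of a piece of colon depends on how many follicles it holds.

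Several libraries stood apart in genes of other tissues or gut segments. Over 41 pancreatic acinar genes the summed level was between 1004 and 1665 FPKM in the ZJ316_WT libraries, and 40665, 1591 and 7819 FPKM in DSS 1, DSS 2 and DSS 3, or 7.57%, 0.307% and 1.48% of all FPKM there. Among the other groups it stood at 14671 FPKM in ZJ316_KO 3. Over 37 squamous epithelium genes the mean level was 1.08, 2.17, 1.04 and 1.79 on the log2(FPKM + 1) scale in ZJ316_WT 1 to 4, and 0.99, 2.55 and 0.99 in the DSS libraries. Genes of the distal gut Hox list averaged 3.03 to 3.50 on the same scale in ZJ316_WT and 3.22, 3.55 and 2.55 in DSS 1 to 3, and 1.73 in Control 3, where Hoxb13, a marker of the distal colon, was at 0.76 FPKM against at least 79.3 FPKM in the other 17 libraries. Defining colon genes were abundant in all 7 libraries, with Epcam, an epithelial adhesion molecule, at 754 to 907 FPKM in ZJ316_WT and 775 to 814 FPKM in DSS. Total FPKM was at most 527067 in ZJ316_WT and 537426 in DSS. Read depth is unknown, because no counts were used here.

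No gene passed the test between ZJ316_WT and DSS. The model fitted with limma over all 18 libraries called 0 of 12860 genes (0%) at a Benjamini-Hochberg adjusted p under 0.05, with a smallest adjusted p of 0.9996. At an unadjusted p under 0.05 there were 587 genes (4.56%), of which 253 were higher and 334 lower in ZJ316_WT. In 591 genes (4.6%) all 4 ZJ316_WT libraries lay above all 3 DSS libraries, and in 768 genes (5.97%) all 4 lay below. These shares are the background for every count of separated libraries given here.

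The estimates were close to zero for most genes and their intervals were narrow. The median difference over all genes was -0.00065 on the log2 scale, and the median half-width of the 95% confidence interval was 0.23. For 12276 genes (95.5%) the whole interval lay between -1 and 1, and for 11081 genes (86.2%) it lay within a 1.5-fold change in either direction. These limits are on the log2(FPKM + 1) scale, which shrinks both estimates and intervals of genes with low FPKM. For such genes they do not bound the fold change in FPKM. Of the genes tested, 9448 reached 5 FPKM in at least 3 of the 7 libraries. In only 24 genes was the estimate itself at least 1 in size. By the same test against Control, ZJ316_WT had 1954 genes higher (15.2%) and 1071 lower (8.33%), and DSS had 1558 higher (12.1%) and 697 lower (5.42%), and both sets of counts share the 3 Control libraries. ZJ316_WT has 4 libraries and DSS 3, so the 2 tests do not have equal power. Without Control 3, the library low in Hox genes, the counts were 1150 higher and 713 lower in ZJ316_WT, and 1003 higher and 501 lower in DSS.

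**Figure D1:**
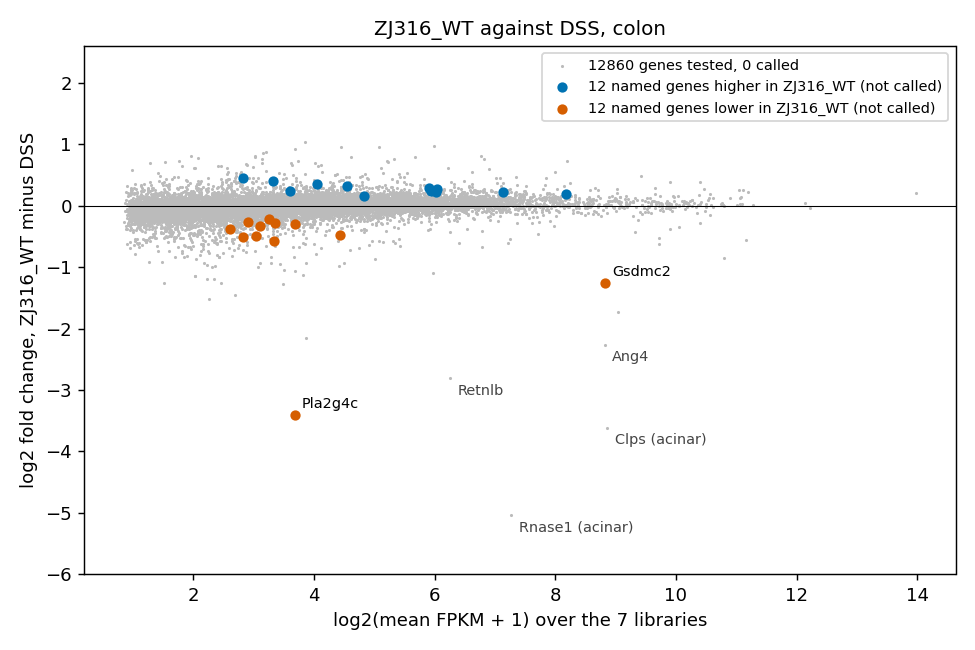
Difference between ZJ316_WT and DSS (log2 fold change, vertical axis) against the mean level over the 7 libraries (log2(mean FPKM + 1), horizontal axis), with 1 point for each of the 12860 genes tested. The 12 named genes in each direction are coloured and none was called. Labelled points include Pla2g4c, Retnlb, Ang4 and the acinar genes Clps and Rnase1, all more than 2 below zero.

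Genes of the colonic epithelium were among those with the largest lower estimates. Gsdmc2, a member of the gasdermin C cluster of pore-forming proteins on chromosome 15, had the smallest p of all genes. Its level was 232, 362, 316 and 215 FPKM in ZJ316_WT 1 to 4, and 641, 909 and 498 FPKM in DSS 1 to 3. The groups did not overlap, and the difference was -1.26 ± 0.27 (log2 ± SE, 95% interval -1.84 to -0.69, unadjusted p = 0.000271), which was not called. In the other groups Gsdmc2 was at 491 to 702 FPKM in ZJ316_KO, 234 to 265 FPKM in ZJ316_COM and 290, 703 and 325 FPKM in Control 1 to 3, so that Control 2 stood with the DSS and ZJ316_KO libraries.

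Of 12 Clca and gasdermin genes tested, 4 were separated downward, namely Gsdmc2, Gsdmc3, Gsdmc4 and Clca1, and 0 upward. The list had 5 members above zero and 7 below, with a median of -0.09 (log2), which was 0.15 without ZJ316_WT 4, 0.05 without DSS 3 and 0.10 with array weights. Gsdmc4 was at 613, 837, 743 and 538 FPKM in ZJ316_WT and 1010, 1147 and 974 FPKM in DSS, a difference of -0.63 ± 0.27 (log2). Gsdmc3 was at 77.3 to 95.1 FPKM in ZJ316_WT and 117 to 158 FPKM in DSS, a difference of -0.67 ± 0.26 (log2). The longest protein-coding transcripts of Gsdmc2 and Gsdmc3 in GENCODE M21 were identical at 97.0% of 2022 aligned bases, those of Gsdmc2 and Gsdmc4 at 94.2%, and those of Gsdmc3 and Gsdmc4 at 92.7%. How the authors' counting divided reads among such copies is not given in the sources used here, so the 3 genes may not be separate observations.

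Pla2g4c, which encodes a cytosolic phospholipase A2, had the largest lower estimate among the genes named by the rule for single genes. It was at 0.41, 1.12, 5.02 and 0.43 FPKM in ZJ316_WT and 38.9, 12.2 and 24.7 FPKM in DSS. No ZJ316_WT library reached the lowest DSS library, and the difference was -3.40 ± 0.81 (log2, 95% interval -5.12 to -1.69). Pla2g4c passed the filter on low values only with the DSS libraries counted, so its separation is a description and no support. It was at 5.00 to 25.7 FPKM in ZJ316_KO, 0.49 to 0.99 FPKM in ZJ316_COM, and 0.63, 37.5 and 3.90 FPKM in Control 1 to 3.

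Of 15 goblet and mucus genes tested, 1 had all ZJ316_WT libraries above DSS and 3 had all below, with a list median of -0.29 (log2) beside -0.00065 over all genes. The median was 0.11 (log2) without the acinar-rich libraries DSS 1, DSS 3 and ZJ316_KO 3, which leaves DSS 2 as the only DSS library. Ang4, an angiogenin-family antimicrobial ribonuclease with close relatives in the mouse genome, was at 77.5, 212, 311 and 141 FPKM in ZJ316_WT and 995, 792 and 639 FPKM in DSS. The difference was -2.27 ± 1.03 (log2). Retnlb, which encodes the goblet cell protein RELM-beta, was at 4.12, 22.95, 49.99 and 13.5 FPKM in ZJ316_WT and 282, 79.8 and 77.7 FPKM in DSS, a difference of -2.81 ± 1.46 (log2, 95% interval -5.92 to 0.30). Both groups were separated in both genes, and the intervals were the widest among the goblet genes named. Clca1, a secreted protease of goblet cell mucus, averaged 1912 ± 199 FPKM in ZJ316_WT and 2811 ± 390 FPKM in DSS (SD, n = 4 and 3), without overlap. Klk1, a tissue kallikrein, averaged 1234 ± 94.4 FPKM in ZJ316_WT and 1517 ± 242 FPKM in DSS, and its libraries overlapped. Muc2, the main secreted mucin of the colon, was at 500, 531, 713 and 449 FPKM in ZJ316_WT and 903, 465 and 900 FPKM in DSS, which overlapped.

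Among 13 antimicrobial protein genes tested, 1 had all ZJ316_WT libraries above DSS and 3 had all below, with a median of -0.17 (log2), or 0.01 without the acinar-rich libraries. The lectin gene Itln1 was at 2.10, 2.24, 4.0 and 1.31 FPKM in ZJ316_WT and 10.1, 7.99 and 3.94 FPKM in DSS. ZJ316_WT 3 and DSS 3 overlapped by a small margin, and the difference was -1.27 ± 0.46 (log2). Lysozyme Lyz1 was at 16.5 to 20.8 FPKM in ZJ316_WT and 28.9 to 31.4 FPKM in DSS, a difference of -0.72 ± 0.35 (log2). In bulk tissue, fewer cells of a type and less RNA per cell cannot be told apart, for these genes and for every cell type list given here.

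The 7 tuft cell genes tested all had lower estimates in ZJ316_WT, with a median of -0.32 (log2), and 2 of them were separated. Tuft cells are chemosensory epithelial cells that release interleukin 25. Alox5, a leukotriene synthesis enzyme, was at 1.19, 0.95, 1.16 and 0.85 FPKM in ZJ316_WT and 2.09, 1.28 and 2.50 FPKM in DSS. It passed the filter on low values only with the DSS libraries counted. Its separation, and the list's count and median that include it, are therefore a description and no support. Sh2d6, an adaptor gene used as a tuft cell marker, was at 1.40 to 2.95 FPKM in ZJ316_WT and 2.98 to 3.32 FPKM in DSS. The taste-pathway channel Trpm5 (-0.52 ± 0.30, log2) and the kinase Dclk1 (-0.32 ± 0.19, log2) overlapped. All 4 genes lay between 0.63 and 4.10 FPKM in these 7 libraries, where log2(FPKM + 1) understates a change.

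**Figure D2:**
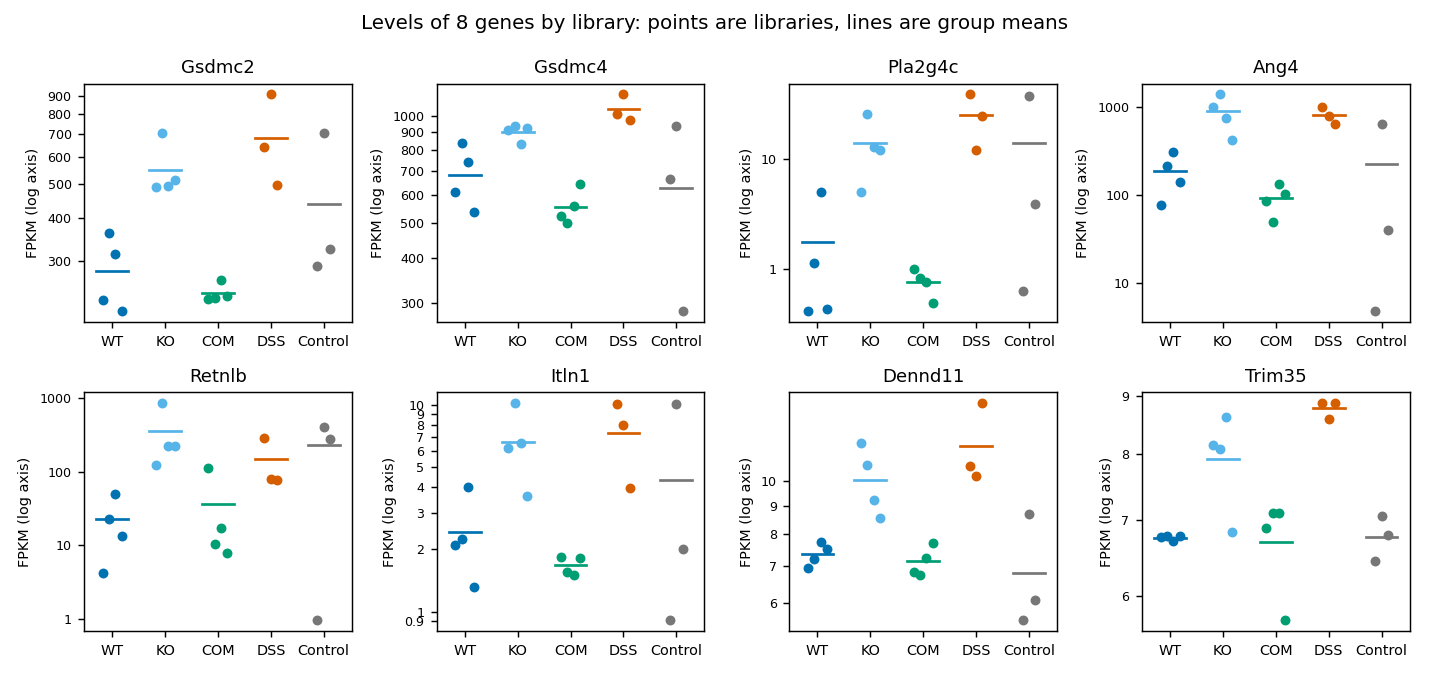
FPKM (log axis) of 8 genes in each library, with the ZJ316_WT (WT), ZJ316_KO (KO) and ZJ316_COM (COM) groups to the left of DSS and Control. Points are libraries and lines are group means. ZJ316_WT and ZJ316_COM lie low and DSS and most ZJ316_KO libraries lie high for Gsdmc2, Pla2g4c and Ang4. For Gsdmc2 and Pla2g4c, Control 2 lies with the high libraries and Control 1 and Control 3 lie lower.

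Dennd11, which encodes a DENN domain protein, and Trim35, which encodes a tripartite-motif protein, were the other lower genes with the smallest p. Dennd11 was at 6.94, 7.23, 7.76 and 7.52 FPKM in ZJ316_WT and 10.6, 10.2 and 13.8 FPKM in DSS, a difference of -0.58 ± 0.13 (log2). Trim35 was at 6.76, 6.77, 6.70 and 6.77 FPKM in ZJ316_WT and 8.87, 8.59 and 8.87 FPKM in DSS, a difference of -0.34 ± 0.08 (log2). Both groups were tight for Trim35, and neither gene was called. The GTPase gene Gimap1, expressed in lymphocytes, was at 5.07 to 7.79 FPKM in ZJ316_WT and 8.51 to 9.51 FPKM in DSS, a difference of -0.50 ± 0.13 (log2). The remaining 7 lower genes named by the rule were Rubcn, Swap70, Creld1, Lbh, Gigyf1, Ero1b and Rtl8c, with estimates between -0.22 for Rubcn and -0.51 for Ero1b (log2). Swap70, a signalling protein of B cells and other leukocytes, stood at -0.31 ± 0.08 (log2), and Ero1b, an oxidoreductase of the endoplasmic reticulum, averaged 5.00 ± 0.56 FPKM in ZJ316_WT and 7.63 ± 1.52 FPKM in DSS (SD, n = 4 and 3).

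B cell genes were lower in every ZJ316_WT library than in every DSS library. This held for 12 of 12 genes of the list, beside 5.97% of all genes, but 0 of 12 were called. The median difference was -0.97 (log2). The mean level of the list was 1.96, 2.54, 3.13 and 2.83 on the log2(FPKM + 1) scale in ZJ316_WT 1 to 4, and 3.62, 3.41 and 3.71 in DSS 1 to 3. The 12 genes mark the same cells and are not separate observations.

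Spib, a transcription factor of B cells and of M cells, had the smallest p of the list. It was at 4.66, 5.84, 9.15 and 7.54 FPKM in ZJ316_WT and 14.03, 11.98 and 15.48 FPKM in DSS, a difference of -0.96 ± 0.31 (log2, 95% interval -1.61 to -0.30). Complement receptor 2, Cr2, was at 1.09 to 3.93 FPKM in ZJ316_WT and 4.79 to 6.59 FPKM in DSS, a difference of -1.0 ± 0.42 (log2). The kinase Blk, which signals from the B cell receptor, stood at -0.87 ± 0.36 (log2), and the low-affinity IgE receptor Fcer2a at -0.99 ± 0.43 (log2). ZJ316_WT 1 was lowest and ZJ316_WT 3 highest within their group for each of these 4 genes. Beside them, the list averaged 2.29 to 3.41 in ZJ316_KO, 2.33 to 3.29 in ZJ316_COM, and 3.05, 3.29 and 0.57 in Control 1 to 3, and the highest of the 12 libraries of the 3 strains was at 3.41, the level of the lowest DSS library. With the acinar score as a covariate the median was -0.57 (log2), and without ZJ316_WT 1 it was -0.72 (log2); without the acinar-rich libraries it was -0.77 (log2).

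Of 10 MHC class II genes tested, 3 had all ZJ316_WT libraries below DSS and 0 above, with a median of -0.14 (log2). H2-Oa (-0.69 ± 0.37, log2) and H2-Ob (-0.93 ± 0.52, log2) encode the DO dimer, which B cells use to modulate peptide loading, and Ciita (-0.47 ± 0.31, log2) encodes the class II transactivator. H2-Eb1, a class II chain of all antigen-presenting cells, was at 99.9 to 133 FPKM in ZJ316_WT and 119 to 136 FPKM in DSS, which overlapped. Of 15 NF-kB target genes, 4 had all ZJ316_WT libraries below DSS and 0 above, with 5 estimates above zero and a median of -0.10 (log2). Among them Nfkb2, the p100 subunit gene of NF-kB, was at 15.5 to 17.9 FPKM in ZJ316_WT and 19.77 to 21.98 FPKM in DSS, and Cd83, a surface protein of activated dendritic and B cells, was at 4.50 to 6.67 FPKM in ZJ316_WT and 8.40 to 10.2 FPKM in DSS. The kinase Ikbke was separated too (-0.14 ± 0.08, log2), while the adaptor Traf1 overlapped (-0.34 ± 0.20, log2).

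Of 18 chemokine genes, 3 had all ZJ316_WT libraries below DSS and 0 above, and the list median was 0.12 (log2) with 10 estimates above zero, or -0.08 without the acinar-rich libraries. Ccl21a, the lymphatic and T zone chemokine, was at 115, 87.9, 156 and 147 FPKM in ZJ316_WT and 169, 209 and 168 FPKM in DSS. Cxcl13, which draws B cells into follicles, was at 18.6 to 30.4 FPKM in ZJ316_WT and 31.2 to 44.7 FPKM in DSS, a difference of -0.64 ± 0.41 (log2). Ccl25, an epithelial chemokine of gut homing, was at 2.10 to 2.87 FPKM in ZJ316_WT and 2.88 to 4.74 FPKM in DSS. Ccl11, the eosinophil chemokine eotaxin, overlapped (-0.28 ± 0.18, log2). Plasma cell genes did not share the separation seen for B cell genes. Of 10 tested, 1 was separated downward, and the median was -0.11 (log2).

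**Figure D3:**
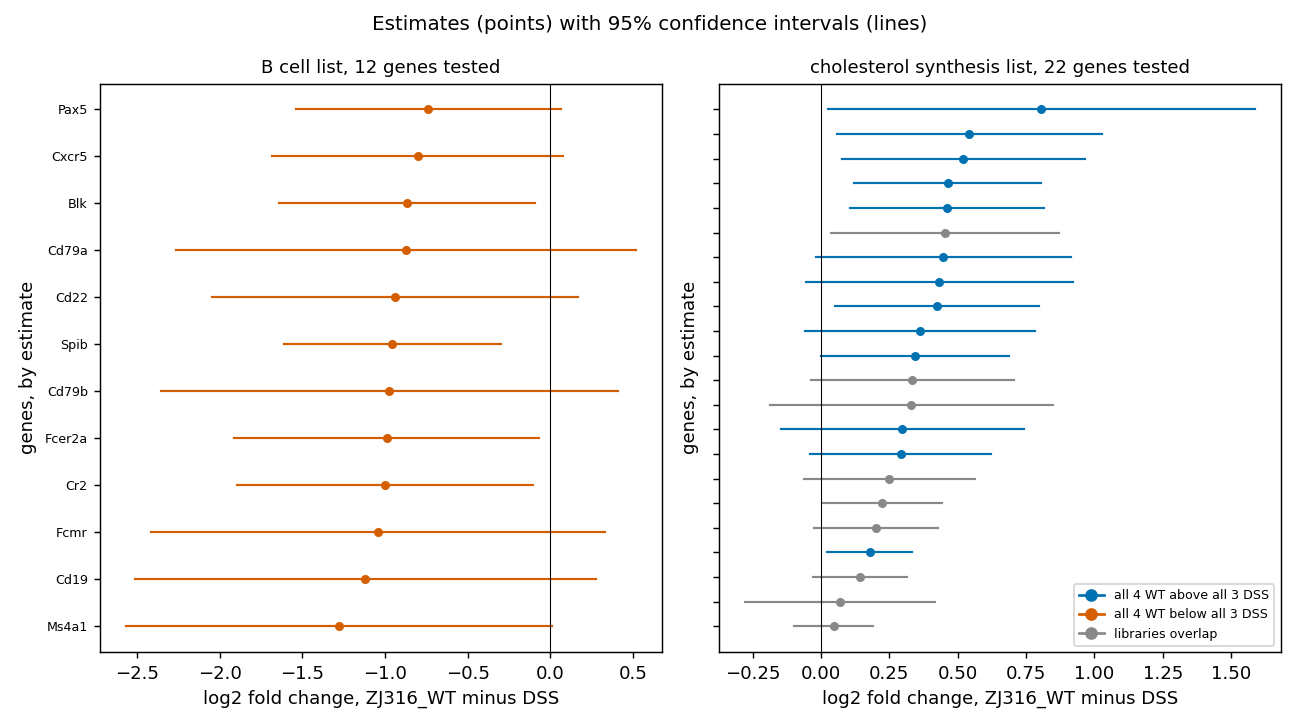
Difference between ZJ316_WT and DSS (log2 fold change, horizontal axis) for the 12 B cell genes and the 22 cholesterol synthesis genes tested. Genes run down the vertical axis by estimate, points are estimates, lines are 95% confidence intervals, and colour shows whether all libraries of the groups were separated. All 12 B cell genes were separated downward and 13 of 22 cholesterol genes upward, while many intervals cross zero.

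Cholesterol synthesis genes were higher in ZJ316_WT libraries. Cells make cholesterol from acetyl-CoA through the mevalonate pathway, whose enzymes are raised together by the transcription factor SREBP2 when sterols are low. All 22 genes tested had estimates above zero with a median of 0.34 (log2), and in 13 of them all ZJ316_WT libraries lay above DSS, beside 4.6% of all genes. None was called. Across libraries the mean level of the list was 5.19, 5.50, 5.19 and 5.15 on the log2(FPKM + 1) scale in ZJ316_WT and 4.90, 4.84 and 5.00 in DSS.

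Sqle, squalene epoxidase, was at 41.7, 57.3, 46.98 and 44.9 FPKM in ZJ316_WT and 33.7, 29.1 and 35.7 FPKM in DSS, a difference of 0.52 ± 0.21 (log2, 95% interval 0.08 to 0.96). Stard4, a sterol carrier, was at 43.9, 54.7, 44.4 and 44.99 FPKM in ZJ316_WT and 41.96, 38.7 and 43.2 FPKM in DSS, a smaller difference of 0.18 ± 0.07 (log2). In both genes ZJ316_WT 2 was the highest ZJ316_WT library and every DSS library lay below the lowest of the group.

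The same list averaged 5.29 to 5.62 in ZJ316_KO and 5.12 to 5.46 in ZJ316_COM, above the DSS range, and 5.43, 4.88 and 4.57 in Control 1 to 3. Against Control, 5 of 22 genes rose in ZJ316_WT, beside 15.2% of all genes, and 0 of 22 passed the test in DSS, beside 12.1% higher and 5.42% lower of all genes. Stard4 rose by 0.32 ± 0.07 (adjusted p = 0.00644) on the log2 scale in ZJ316_WT against Control, and it stood at 0.14 ± 0.08 in DSS against Control, which did not pass. Without Control 3, 3 of 22 genes rose and 1 fell in ZJ316_WT and 3 fell in DSS. Stard4 still passed in ZJ316_WT (adjusted p = 0.0331). These values share the Control libraries and do not show that ZJ316_WT differed from DSS.

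Interferon response genes had estimates above zero in all 20 genes tested, with a median of 0.50 (log2), and 6 of 20 were separated upward. The mean level of the list was 4.35, 4.31, 4.27 and 5.17 on the log2(FPKM + 1) scale in ZJ316_WT 1 to 4, and 4.11, 3.87 and 4.21 in DSS 1 to 3. All 4 ZJ316_WT libraries lay above DSS, but a single library carried much of the difference. Isg15, an antiviral ubiquitin-like protein, was at 32.8, 25.5, 28.4 and 82.7 FPKM in ZJ316_WT 1 to 4 and 22.2, 12.3 and 24.8 FPKM in DSS. ZJ316_WT 4 stood far above its group, and the difference was 0.95 ± 0.53 (log2, 95% interval -0.17 to 2.07). Without ZJ316_WT 4 the median over the list was 0.30 (log2), and without the libraries rich in squamous genes (DSS 2, ZJ316_WT 2, ZJ316_WT 4, ZJ316_COM 3 and ZJ316_KO 3) it was 0.12 (log2). The oligoadenylate synthase genes Oas1a, Oas2 and Oasl2 followed the same library. Oasl2 was at 71.0, 66.4, 66.8 and 151 FPKM in ZJ316_WT and 56.1, 45.3 and 61.9 FPKM in DSS, and Oas2 was at 13.9, 12.95, 14.55 and 34.0 FPKM in ZJ316_WT and 10.2, 8.75 and 12.5 FPKM in DSS. Oas1a was at 49.5 to 78.0 FPKM in ZJ316_WT and 43.2 to 53.2 FPKM in DSS, with overlap, and it has close paralogs in the mouse genome. Among the other groups ZJ316_COM 2 reached 115 FPKM of Isg15, above every other library.

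Some members hold a known promoter element. The 250 bases upstream of the start site of Isg15 (chr4:156200819-156201068, minus strand) and of Oas1a (chr5:120907526-120907775, minus strand), from RefSeq on GRCm38.p6, are shown because they hold the core of the interferon-stimulated response element, GAAA and GAAA with any 2 bases between them, in capitals, overlapping copies included.
Isg15: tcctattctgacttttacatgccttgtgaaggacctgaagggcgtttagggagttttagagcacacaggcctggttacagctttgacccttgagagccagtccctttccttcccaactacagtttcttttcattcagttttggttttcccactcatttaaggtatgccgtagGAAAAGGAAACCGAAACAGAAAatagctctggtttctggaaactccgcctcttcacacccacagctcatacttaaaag
Oas1a: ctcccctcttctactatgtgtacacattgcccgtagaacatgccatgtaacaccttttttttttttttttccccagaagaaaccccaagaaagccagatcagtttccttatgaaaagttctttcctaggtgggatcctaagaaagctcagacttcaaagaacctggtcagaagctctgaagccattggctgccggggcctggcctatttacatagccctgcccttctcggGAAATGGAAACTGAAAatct
The core, searched on both strands, occurred 3 times in the Isg15 window and 2 times in the Oas1a window. Of the 15 interferon genes with a window in the RefSeq table, 9 (60%) held it, Oas2 and Oasl2 not among them, against 936 of 27025 genes (3.46%) in the whole table. The match describes the letters of these windows and is no measure of binding in these mice.

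Genes of the epithelial acute phase and of nitric oxide synthesis split the ZJ316_WT libraries. Of 15 tested, 2 had all ZJ316_WT libraries above DSS and 1 had all below, with a median of 0.07 (log2), which was -0.04 without ZJ316_WT 2 and 0.19 without ZJ316_WT 4. Lbp, the lipopolysaccharide-binding protein, was at 10.3, 20.8, 28.1 and 4.42 FPKM in ZJ316_WT and 6.59, 5.03 and 8.03 FPKM in DSS, a difference of 0.92 ± 0.39 (log2). Lrg1, an acute-phase glycoprotein, was at 10.9, 45.45, 47.85 and 8.30 FPKM in ZJ316_WT and 9.47, 7.87 and 15.8 FPKM in DSS. Nos2, inducible nitric oxide synthase, was at 20.8, 44.1, 47.6 and 8.19 FPKM in ZJ316_WT and 12.7, 8.98 and 22.7 FPKM in DSS. In all 3 genes ZJ316_WT 2 and ZJ316_WT 3 lay above every DSS library, while ZJ316_WT 4 lay below every DSS library for Lbp and Nos2 and inside the DSS range for Lrg1. Slpi, a secreted inhibitor of leukocyte proteases, was separated upward, at 50.02, 39.99, 43.78 and 39.95 FPKM in ZJ316_WT and 23.4, 29.0 and 25.3 FPKM in DSS, with a difference of 0.72 ± 0.48 (log2).

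Of 22 pattern recognition and inflammasome genes, 5 were separated upward and 1 downward, with a median of 0.10 (log2). Casp4 encodes mouse caspase-11, which senses cytosolic lipopolysaccharide, and was at 47.1, 57.2, 54.7 and 36.8 FPKM in ZJ316_WT and 34.8, 33.3 and 43.2 FPKM in DSS. Nlrc4, the adaptor that senses bacterial flagellin with NAIP proteins, was at 15.83 to 19.98 FPKM in ZJ316_WT and 14.99 to 15.71 FPKM in DSS, a difference of 0.18 ± 0.08 (log2). The DNA sensor Aim2 was at 30.6 to 34.3 FPKM in ZJ316_WT and 28.3 to 29.6 FPKM in DSS, and the TLR4 partner Ly96 overlapped (0.24 ± 0.12, log2). None of the 4 was called.

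Of 6 mast cell genes tested, 2 were separated upward and 0 downward, with a median of 0.47 (log2), which was 0.20 over the 10 genes measured with no filter on low values. Mcpt1, a chymase of mucosal mast cells, was at 5.85, 5.44, 9.08 and 7.85 FPKM in ZJ316_WT and 4.58, 4.05 and 4.61 FPKM in DSS. Mcpt4, a chymase of connective tissue mast cells, was at 0.98 to 1.66 FPKM in ZJ316_WT and 0.48 to 0.62 FPKM in DSS, a difference of 0.58 ± 0.17 (log2). It passed the filter on low values only through the ZJ316_WT libraries, so its separation, and the list's count and median that include it, are a description and no support. Mcpt2 (0.41 ± 0.33, log2) and the tryptase Tpsb2 (0.21 ± 0.18, log2) overlapped. The Mcpt genes are paralogs, and reads could be divided among them.

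Genes of purine breakdown include Xdh, xanthine dehydrogenase, which makes uric acid from hypoxanthine and xanthine. It was at 51.2, 55.1, 61.4 and 43.7 FPKM in ZJ316_WT and 35.9, 38.9 and 33.7 FPKM in DSS. All ZJ316_WT libraries lay above DSS, and the difference was 0.53 ± 0.20 (log2, 95% interval 0.11 to 0.94), which was not called. Xdh was at 29.1 to 33.1 FPKM in ZJ316_KO, at 31.9, 65.7, 34.4 and 29.5 FPKM in ZJ316_COM 1 to 4 and at 27.7 to 33.0 FPKM in Control. Guanine deaminase, Gda, was at 68.6, 63.8, 64.8 and 37.9 FPKM in ZJ316_WT and 45.4, 43.9 and 46.4 FPKM in DSS, with ZJ316_WT 4 below the DSS libraries. Purine nucleoside phosphorylase, Pnp, was at 35.9 to 38.0 FPKM in ZJ316_WT and 33.0 to 35.7 FPKM in DSS, and AMP deaminase 3, Ampd3, overlapped (0.14 ± 0.12, log2). Over the 12 breakdown genes tested, 2 were separated upward and 0 downward, and the median was 0.01 (log2).

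Of 22 genes of purine synthesis and salvage, 2 were separated upward and 0 downward, with a median of 0.03 (log2). Both are salvage enzymes that rebuild nucleotides from free bases. Aprt, for adenine, was at 78.6 to 87.1 FPKM in ZJ316_WT and 69.3 to 76.8 FPKM in DSS, a difference of 0.18 ± 0.08 (log2), and Hprt, for hypoxanthine and guanine, was at 78.7 to 86.3 FPKM in ZJ316_WT and 70.0 to 76.2 FPKM in DSS, a difference of 0.15 ± 0.07 (log2). The synthesis enzymes Adss (0.12 ± 0.08, log2) and Atic (0.14 ± 0.10, log2) overlapped. Of 20 genes of extracellular purine handling, 2 were separated upward and 1 downward, with a median of -0.06 (log2). The separated lower gene was Slc28a2, a sodium-coupled purine nucleoside transporter, at 1.07 to 2.16 FPKM in ZJ316_WT and 2.76 to 3.12 FPKM in DSS. The ectoenzymes Enpp1 (-0.12 ± 0.08, log2), Enpp3 (-0.33 ± 0.26, log2) and Dpp4 (-0.17 ± 0.14, log2) overlapped.

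Of 20 listed genes of histidine, histamine and carnosine metabolism, 10 reached the level to be tested, 0 were separated and the median was -0.04 (log2). Histidine ammonia-lyase Hal and histidine decarboxylase Hdc, which start histidine breakdown and histamine synthesis, were among those below it. The named members were Maob, an amine oxidase, at 0.23 ± 0.20, the histidyl-tRNA synthetases Hars and Hars2 at 0.09 ± 0.08 and -0.07 ± 0.07, and the endolysosomal histidine transporter Slc15a4 at -0.12 ± 0.11 (log2). The 95% interval for Hars was -0.08 to 0.26 (log2), so a change of 1.5-fold lay outside it.

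No core clock gene was called, with 1 of 17 separated upward, 1 downward and a median of 0.04 (log2). Dbp, a clock-controlled transcription factor, was at 3.80, 3.20, 2.03 and 7.66 FPKM in ZJ316_WT and 1.63, 3.04 and 1.08 FPKM in DSS. The groups overlapped, and the difference was 0.77 ± 0.30 (log2). It was at 11.4 to 20.3 FPKM in ZJ316_KO, 14.6 to 24.3 FPKM in ZJ316_COM and 1.01 to 1.48 FPKM in Control. The nuclear receptor gene Nr1d1 was at 49.99, 42.5, 39.8 and 55.99 FPKM in ZJ316_WT and 30.2, 36.2 and 18.3 FPKM in DSS, without overlap, and Nr1d2 overlapped (0.50 ± 0.24, log2). Nfil3, a repressor that competes with Dbp, was at 2.10 to 7.13 FPKM in ZJ316_WT and 6.23 to 8.68 FPKM in DSS. The labels used here give no time of day for tissue collection, and its part in these values was not tested.

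The 12 higher genes named by the rule had estimates between 0.16 and 0.45 (log2), and none was called. Ccdc116, which encodes a coiled-coil protein, had the smallest p, at 7.64, 7.65, 6.69 and 6.01 FPKM in ZJ316_WT and 4.61, 4.76 and 5.2 FPKM in DSS, a difference of 0.45 ± 0.10 (log2). Tamm41, a mitochondrial enzyme of cardiolipin synthesis, was at 9.21 to 11.7 FPKM in ZJ316_WT and 6.96 to 7.72 FPKM in DSS, and Cds1, which makes CDP-diacylglycerol for phospholipids, was at 60.4 to 68.3 FPKM in ZJ316_WT and 53.7 to 56.8 FPKM in DSS. Rac1, a GTPase of the actin cytoskeleton, was at 304, 322, 312 and 280 FPKM in ZJ316_WT and 264, 272 and 263 FPKM in DSS, a difference of 0.19 ± 0.05 (log2). Anks4b, a scaffold of the brush border, averaged 63.9 ± 4.80 FPKM in ZJ316_WT and 51.9 ± 3.30 FPKM in DSS, and F2rl1, the protease-activated receptor 2, averaged 68.1 ± 3.09 FPKM in ZJ316_WT and 58.4 ± 3.32 FPKM in DSS (SD, n = 4 and 3). Cdkn3, Lad1, Rbks, Mrpl2, Dmac1 and Lrrc42 made up the rest, with estimates between 0.16 for Mrpl2 and 0.36 for Cdkn3 (log2). Against the same DSS libraries, ZJ316_KO was called higher for Ccdc116 (0.75, adjusted p = 0.00684), Cdkn3 (0.53), Rbks (0.39) and Mrpl2 (0.28, adjusted p = 0.0384 for each of the last 3). In ZJ316_COM they stood at 0.59, 0.47, 0.33 and 0.20 (log2) in that order, not called. For Cds1, Rac1, Anks4b, F2rl1 and Dmac1 the ZJ316_KO estimate was smaller than that of ZJ316_WT.

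Some of the lists that differed from Control in both groups were compared between ZJ316_WT and DSS. Of all genes, 15.2% were higher and 8.33% lower in ZJ316_WT against Control, and 12.1% higher and 5.42% lower in DSS. Of 14 macrophage genes, 14 rose in ZJ316_WT and 13 in DSS against Control, with median differences of 1.17 and 1.21 (log2), and the median of ZJ316_WT minus DSS was 0.06. Of 16 fibroblast and collagen genes, 16 rose in ZJ316_WT and 16 in DSS, with a median of 0.01 (log2) for ZJ316_WT minus DSS. All 13 endothelial genes rose in both groups, and their median for ZJ316_WT minus DSS was -0.05 (log2). Of 22 oxidative phosphorylation genes, 15 fell in ZJ316_WT and 14 in DSS against Control, with a median of 0.02 (log2) for ZJ316_WT minus DSS. Of 16 matrix protease and inhibitor genes, 10 rose in ZJ316_WT and 9 in DSS, with 0 separated between the 2 groups and a median of -0.01 (log2). Counts in other lists were less alike. Of 18 chemokine genes, 11 rose and 1 fell in ZJ316_WT, and 7 rose in DSS. Of 13 smooth muscle genes, 9 fell in ZJ316_WT and 5 in DSS. Of 12 enteric neuron and glia genes, 9 fell in ZJ316_WT and 4 in DSS. Of 13 antimicrobial protein genes, 1 rose in ZJ316_WT and 3 in DSS. All of these counts share the 3 Control libraries. ZJ316_WT has 4 libraries and DSS 3, so standard errors against Control are smaller for ZJ316_WT. Unequal counts are therefore no test between the 2 groups. Without Control 3, the macrophage counts were 11 in ZJ316_WT and 10 in DSS with medians of 0.87 and 0.83 (log2), the fibroblast counts 15 and 14, the endothelial counts 13 in both, the matrix protease counts 10 and 9, and 11 oxidative phosphorylation genes fell in each group. In that setting 7 chemokine genes rose and 0 fell in ZJ316_WT, and 5 rose in DSS. Smooth muscle genes that fell numbered 10 in ZJ316_WT and 4 in DSS, and enteric neuron and glia genes 4 and 1. Of the antimicrobial protein genes, 1 rose in ZJ316_WT and 0 in DSS, the reverse of the order with Control 3. Without the acinar-rich libraries, the medians of ZJ316_WT minus DSS were -0.12 for macrophage, -0.28 for fibroblast and collagen, -0.17 for endothelial and -0.20 for matrix protease and inhibitor genes (log2), with 0 of 16 fibroblast estimates above zero.

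The neutrophil list, with 7 genes tested, had a median of -0.11 (log2) between ZJ316_WT and DSS, and 1 gene was separated upward. This median turned to 0.10 with a pseudocount of 0.1, 0.30 without DSS 2 and 0.32 with array weights. Without the acinar-rich libraries, with DSS 2 as the only DSS library, it was -0.28 (log2). The 17 absorptive colonocyte genes had 0 separated genes and a median of 0.01 (log2), and the 19 tight junction and barrier genes had 2 separated upward, 0 downward and a median of 0.03 (log2).

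**Figure D4:**
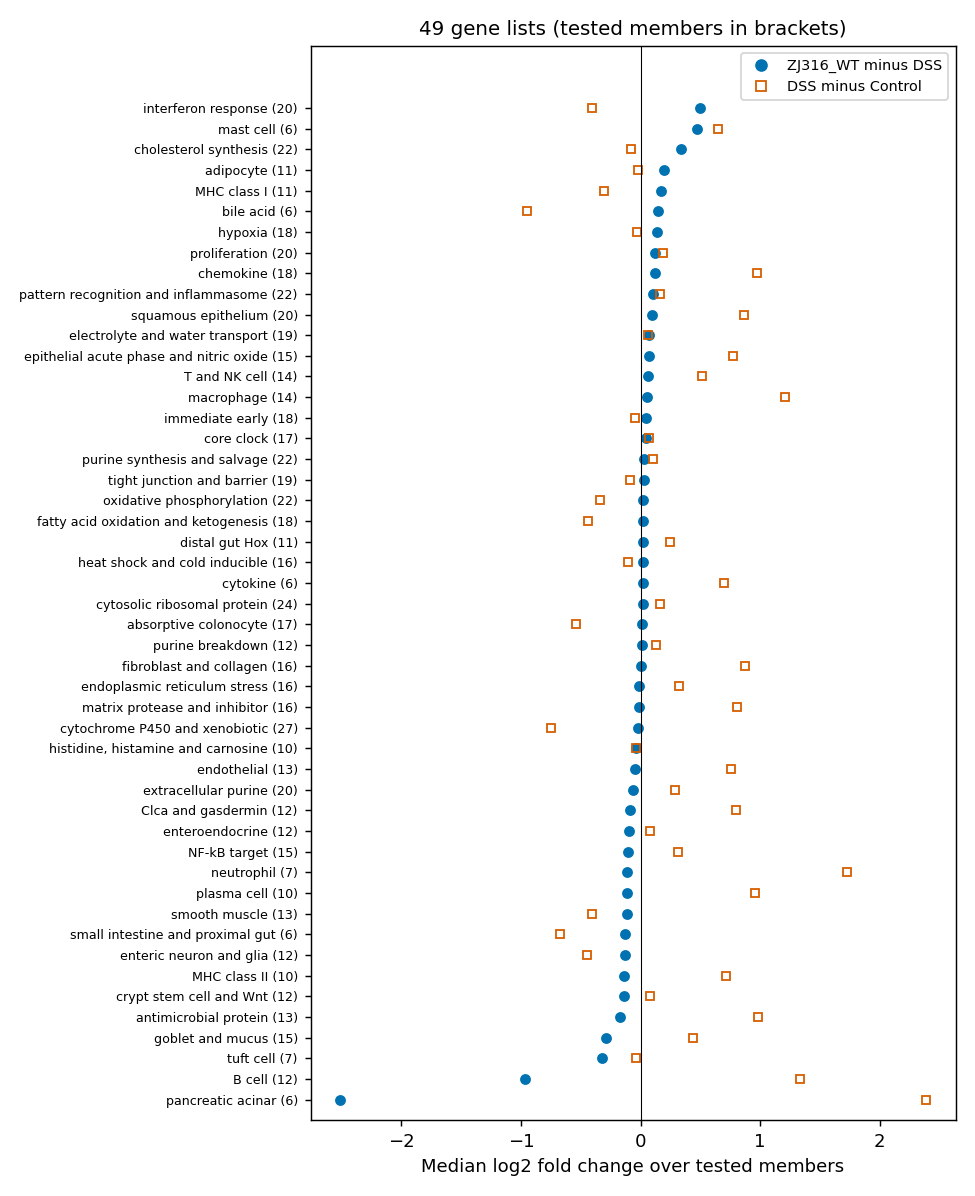
Median log2 fold change (horizontal axis) over the tested members of 49 gene lists, for ZJ316_WT minus DSS (filled circles) and DSS minus Control (open squares), which share the DSS libraries. The filled circles lie within 0.2 of zero for most lists, and the B cell list at -0.97 and the pancreatic acinar list at -2.52 lie lowest.

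The pancreatic acinar list had the lowest median, and it followed the 2 DSS libraries in which these genes were abundant. Of its 41 genes, 6 were tested, and 3 of these were separated downward. Clps, pancreatic colipase, was at 26.8 to 38.7 FPKM in ZJ316_WT and 2539, 50.3 and 534 FPKM in DSS 1 to 3. Rnase1 was at 0.65 to 1.08 FPKM in ZJ316_WT and 912, 0.73 and 160 FPKM in DSS 1 to 3, so DSS 2 lay inside the ZJ316_WT range. Pnliprp2, a pancreatic lipase-related protein, and Cela1, an elastase, stood at -3.29 ± 0.95 and -1.74 ± 0.76 (log2). With the acinar genes removed and the libraries rescaled, 0 genes were called, as in the main fit. That count could not fall, so it does not show whether acinar RNA bears on the comparison.

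Squamous epithelium genes had 0 of 20 separated and a median of 0.10 (log2). The direction of this median rested on single libraries, since it was 0.63 without DSS 2, -0.38 without ZJ316_WT 2 and -1.58 without the acinar-rich libraries, with DSS 2 as the only DSS library. Csta1 (0.40 ± 0.33), Ly6d (-0.66 ± 0.59), Dmkn (-0.38 ± 0.44) and Sprr2a3 (0.13 ± 0.20, log2) were the named members and all overlapped. Dmkn, an epidermal secreted protein, was at 1.12 to 2.30 FPKM in ZJ316_WT and 1.22, 6.72 and 1.30 FPKM in DSS 1 to 3, so DSS 2 alone set its direction.

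**Figure D5:**
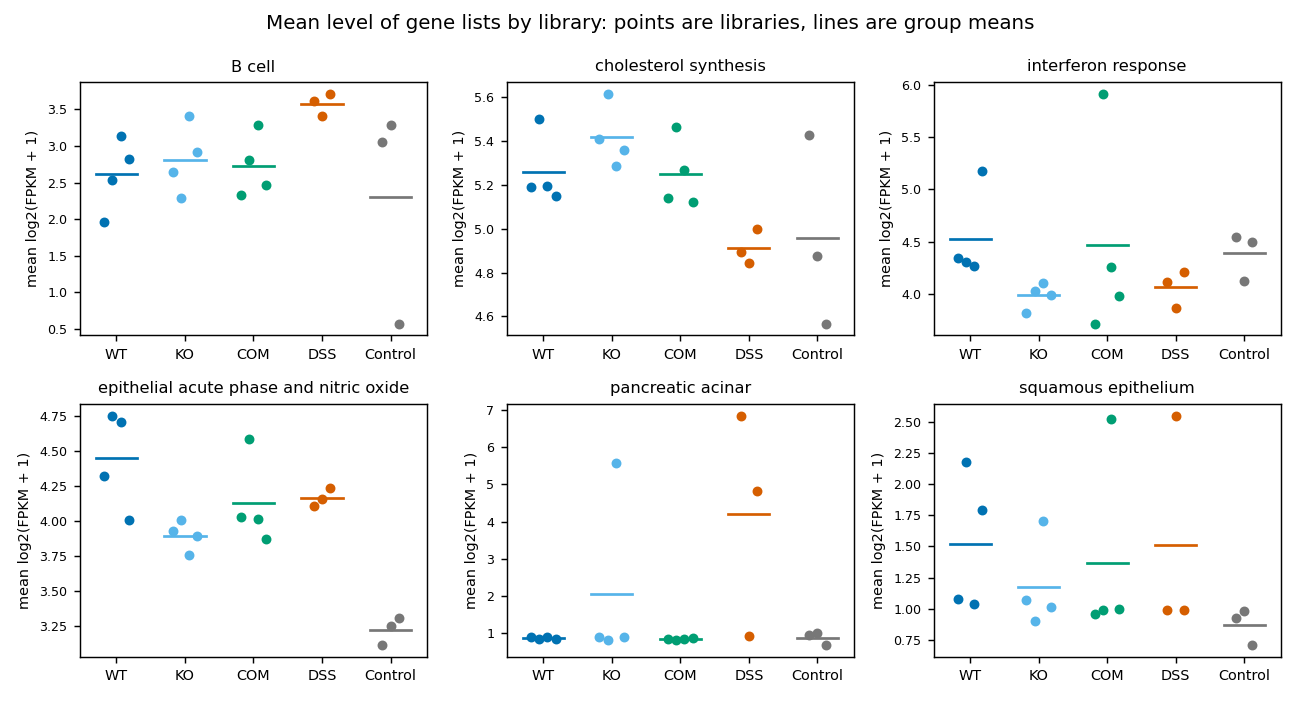
Mean log2(FPKM + 1) over the members of 6 gene lists (vertical axis) in each library, with ZJ316_WT (WT), ZJ316_KO (KO) and ZJ316_COM (COM) left of DSS and Control. Points are libraries and lines are group means. In all 4 ZJ316_WT libraries, B cell levels lie below DSS, and cholesterol and interferon levels lie above DSS. The interferon level is set apart in ZJ316_WT 4, and the acinar level in DSS 1 and DSS 3.

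The difference from DSS was also compared between ZJ316_WT and the other strains, where the DSS term cancels and the test is that of ZJ316_WT against the strain. Against ZJ316_KO, 66 genes were higher (0.513%) and 40 lower (0.311%) in ZJ316_WT. Of the genes described above, Dbp fell by 1.65 ± 0.28 (adjusted p = 0.0235) and Nlrc4 rose by 0.33 ± 0.07 (adjusted p = 0.0485) on the log2 scale. The counts were smaller with a ZJ316_KO library left out. Without ZJ316_KO 2, low in Hox genes, 8 genes were higher and 5 lower, and without ZJ316_KO 3, rich in acinar genes, 4 were higher and 3 lower. Nlrc4 then had adjusted p = 0.0836 and 0.105, and Dbp 0.049 and 0.0534, in that order of libraries. Xdh stood at 0.76 ± 0.18 (adjusted p = 0.0562) and Gsdmc2 at -0.98 ± 0.25 (adjusted p = 0.0637) against ZJ316_KO, and neither passed. Against ZJ316_COM, 0 genes were higher (0%) and 1 was lower (0.00778%) in ZJ316_WT, which was Dbp, at -2.08 ± 0.28 (log2, adjusted p = 0.0181). The ZJ316_COM libraries were not alike, with bile acid genes averaging 3.92, 4.08, 2.67 and 2.72 on the log2(FPKM + 1) scale in ZJ316_COM 1 to 4. This comparison was not repeated with a ZJ316_COM library left out. The 12 B cell genes had a median of -0.19 (log2) against ZJ316_KO and -0.09 (log2) against ZJ316_COM, and the 22 cholesterol genes -0.17 and -0.01 (log2), with 0 called in either list. Without ZJ316_KO 3 the B cell median against ZJ316_KO was 0.0015 (log2), and without ZJ316_KO 2 it was -0.38 (log2).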

How the data were processed

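The labels' protocols describe DNBSEQ sequencing of total RNA from colon. The file deposited by the authors holds FPKM values, scaled to library size and transcript length, for 18349 genes and 18 libraries. Build mm10 comes from the submitters' processing notes. For the aligner, the FPKM program, the annotation and the strand setting the entry is: not given in the sources used here. RefSeq GRCm38.p6 supplied symbols and coordinates for 18230 gene identifiers, and 119 had no match. Titles gave the groups.

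Fold changes are on the log2(FPKM + 1) scale, which understates those of low genes. A gene was tested when 3 or more of the 7 ZJ316_WT and DSS libraries reached 1 FPKM. The 5 groups were fitted together over 18 libraries with limma 3.58.1 under R 4.3.3, using empirical Bayes with an intensity trend. Tests were two-sided, adjusted by Benjamini-Hochberg over 12860 genes and called under 0.05. The fit was tested on simulated data. Intervals are 95%. At most 2.32% of values were identical between any 2 of the 7 libraries.

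Named genes followed a rule. Called genes with separated groups and 5 FPKM or more in the higher group's mean came first, the 12 largest each way, and the smallest p filled up to 12. Predicted, acinar and squamous genes were left out. Each list described gave up to 4 members, called ones first and then by smallest p, and purine, histidine and clock lists were described in any case. Genes called in every fit with 1 library left out were to be named, and there were 0. Some named items are not reported here. Muc2, Epcam and Hoxb13 stand outside the rule as tissue checks. The groups compared and the gene lists were chosen with earlier results of these data known. Of the 5 groups that the protocol makes from 50 mice on DSS, it names 4.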

Additional observations from a re-analysis of the deposited data

Results flagged for a closer look

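In 120 sets of 4 ZJ316_WT values, for 100 genes and 20 list scores, the library farthest out was compared with the nearest of the others by Dixon's ratio at its 95% critical value. Chance flags about 1 in 20 such sets, and 12 were found, some from genes that move together. ZJ316_WT 4 was the highest for the interferon genes Isg15 (ratio 0.873, 82.7 FPKM), Oas1a (0.879, 78.0 FPKM), Oasl2 (0.946, 151 FPKM) and Oas2 (0.924, 34.0 FPKM) and for the interferon list (0.920), and the lowest for Gda (0.846, 37.9 FPKM). ZJ316_WT 3 was the highest for Pla2g4c (0.846, 5.02 FPKM), Clca1 (0.840, 2206 FPKM) and Klk1 (0.904, 1375 FPKM), and the lowest for Trim35 (0.857, 6.70 FPKM), whose ZJ316_WT values hardly differ. ZJ316_WT 2 was the highest for Stard4 (0.901, 54.7 FPKM) and for the cholesterol synthesis list (0.879).

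A test of the difference between strains passed for 2 of the 100 genes followed here. The difference from DSS under ZJ316_WT was smaller than under ZJ316_KO (adjusted p = 0.0235) and under ZJ316_COM (adjusted p = 0.0181) for Dbp. For Nlrc4 the difference from DSS was 0.18 under ZJ316_WT and -0.15 under ZJ316_KO (log2), opposite in sign. Neither was called, while the test between these 2 strains passed (adjusted p = 0.0485). Against ZJ316_KO, Nlrc4 did not pass without ZJ316_KO 2 or without ZJ316_KO 3 (adjusted p = 0.0836 and 0.105), and Dbp did not pass without ZJ316_KO 3 (adjusted p = 0.0534).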

How the results depend on the processing

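The count of genes called between ZJ316_WT and DSS was 0 in both directions with every one of 24 other settings except 1. Without the libraries rich in squamous genes, which leaves 2 libraries in each group, 0 genes were higher and 2 were lower in ZJ316_WT, the acinar genes Rnase1 (-7.69, adjusted p = 0.00138) and Clps (-4.95, adjusted p = 0.0215). Leaving out each of the 7 libraries in turn gave 0 called genes each time. A rule that also asked for a log2 change of at least 1 could only give 0, because the main fit called 0. With a replicate block the count was 0, the smallest adjusted p was 0.742 and 485 genes had an unadjusted p under 0.05. Same-numbered ZJ316_WT and DSS libraries had correlations of 0.04, 0.16 and 0.44 in their deviations, and differently numbered ones had -0.50 to 0.28. The labels give the numbers only as replicates, and the main fit did not take them to pair the libraries. The smallest adjusted p came to 0.0803 with only the 7 libraries, where 1299 genes (10.1%) had an unadjusted p under 0.05, to 0.139 with only the DSS-treated mice and to 0.0820 with array weights, where 1919 genes did.

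Of 2377 pairs of a named gene and a setting, 2366 kept direction and call, 2 gained a call and 9 turned sign, in 7 genes. These were Dpp4 (0.0153), Rnase1 (0.15), Csta1 (-0.0469) and Sprr2a3 (-0.0810) without the acinar-rich libraries, Hars2 (0.00598) and Dmkn (0.0123) without the squamous-rich ones, Rnase1 (0.17) with the acinar score as covariate, and Enpp3 (0.00746) and Dmkn (0.21) without DSS 2. The cause was not tested. No named gene was called in the main fit, so a call could only be gained. The genes named by the rule for single genes were picked for separated groups. Leaving out libraries could therefore not turn their sign, and the same holds for Xdh. With 1 library left out, Enpp3 ranged from -0.502 to 0.00746, Dmkn from -0.691 to 0.21, Gsdmc2 ranged from -1.47 to -1.04, Pla2g4c from -3.88 to -3.03 and Xdh from 0.45 to 0.61. Over all settings the B cell median ranged from -1.14 to -0.57 and the cholesterol median from 0.23 to 0.47. The goblet and mucus median was 0.11 without the acinar-rich libraries. With 4 and 3 libraries and no read counts, small changes in genes with wide spread cannot be resolved. In alternatives chosen after seeing the data, leaving out Control 3 gave 1003 higher genes in DSS against Control, and 1150 higher and 713 lower in ZJ316_WT against Control. Leaving out 1 ZJ316_KO library, 2 or 3, gave 4 to 8 higher and 3 to 5 lower genes in ZJ316_WT against ZJ316_KO.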

Other observations

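Proliferation genes had estimates above zero in 20 of 20 members tested, with a median of 0.12 (log2), but 1 was separated and none was called between ZJ316_WT and DSS, and the median was -0.0052 without the squamous-rich libraries. MHC class I genes had a median of 0.17 (log2), with 2 of 11 separated upward. On the log2(FPKM + 1) scale their mean level was 5.98, 5.99, 5.97 and 6.42 in ZJ316_WT 1 to 4. It was 5.87, 6.01 and 5.93 in DSS 1 to 3, so only ZJ316_WT 4 lay above DSS. The 18 hypoxia genes had a median of 0.14 (log2), with 2 separated upward, or -0.0076 without the acinar-rich libraries. Smooth muscle genes had a median of -0.12 (log2), with 12 of 13 below zero. Enteric neuron and glia genes had a median of -0.13 (log2), with 11 of 12 below zero, and 0 were separated in either list. Without the acinar-rich libraries, with DSS 2 as the only DSS library, the medians were -0.28 and -0.33 (log2) in that order.

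The other strains gave a set of values from libraries outside the comparison of ZJ316_WT and DSS, looked at after the levels had been seen. In ZJ316_COM against ZJ316_KO, 3 genes were higher and 1 lower at an adjusted p under 0.05. Gsdmc2 differed by -1.16 ± 0.25 (adjusted p = 0.154), Pla2g4c by -2.90 ± 0.75 (adjusted p = 0.202), Ang4 by -3.23 ± 0.96 (adjusted p = 0.242), Itln1 by -1.44 ± 0.43 (adjusted p = 0.244), Retnlb by -3.67 ± 1.35 (adjusted p = 0.347), Dennd11 by -0.43 ± 0.12 (adjusted p = 0.222) and Trim35 by -0.21 ± 0.07 (adjusted p = 0.292) on the log2 scale, and none was called. Beside them the ZJ316_WT minus DSS values were -1.26, -3.40, -2.27, -1.27, -2.81, -0.58 and -0.34 in the same order. These 7 were picked after their levels were seen. Of the 12 lower genes named by the rule, 8 were below zero in ZJ316_COM against ZJ316_KO, and Rubcn (0.15), Gigyf1 (0.07) and Gimap1 (0.04) were among those above it. Of the 12 higher genes, 2 were above zero and 10 below.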
